A study of Arabidopsis thaliana with 6 samples.

Results

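Glutathione transferases (GSTs) and UDP-glycosyltransferases (UGTs) were followed in Arabidopsis thaliana suspension cells in which VND1 was switched on. The genes were taken by name: any symbol of the form GST plus a letter and a number, or UGT plus a number, in the array's annotation. This gave 65 genes, 14 GSTs and 51 UGTs, of 16550 genes that had a probe of their own. The gene table holds 105 genes with such symbols, 47 GSTs and 58 UGTs, and the 40 others were not measured by name. Where a gene had more than 1 probe, as 5 did, the brightest over all 6 arrays was used.

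The study hybridised 6 Affymetrix arrays of Arabidopsis genes, 3 of induced and 3 of uninduced cells. All 6 came from suspension cells carrying an estrogen-inducible VND1-GFP construct, grown in the dark at 23 °C. VND1 is a NAC transcription factor that can switch plant cells to the fate of xylem vessel elements, which build a patterned secondary wall and then die. Induced cells had 5 µM estrogen for 24 h, and uninduced cells were kept for 24 h without it. No array held estrogen-treated cells without the construct, so VND1, estrogen and handling cannot be told apart. Whether each sample came from its own culture is not stated, and the p-values therefore describe the spread among these samples alone, part of which may be technical. In bulk RNA, fewer cells of a type and less RNA per cell cannot be told apart.

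GSTs join the tripeptide glutathione to reactive small molecules, which are then carried into the vacuole. The tau (GSTU) and phi (GSTF) classes are large in plants and are known for herbicide detoxification and stress responses, and the lambda class (GSTL) acts on glutathione adducts rather than forming them. UGTs move a sugar from a UDP-sugar to a hormone, a phenolic or a foreign compound, which makes it more soluble and often inactive. In lignifying tissue they are known for glucosylating monolignols, the building blocks of lignin, and plant UGTs are sorted by sequence into lettered groups.

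The label was checked on vessel element genes, although several of these were known to be high in the induced cells when the list was made. All 6 that were measured rose, where 0.534% of all probes did, by a median of 4.81 log2, and their summed level was 12.83 to 13.02 in induced and 8.23 to 8.70 in uninduced arrays. Of the markers of other cells, 1 photosynthetic, 2 phloem and 2 procambium genes were measured, and none was called. The summed level of the 2 phloem markers was 5.48 to 5.63 in induced and 5.20 to 5.47 in uninduced arrays, without overlap. The photosynthetic gene RCA (4.54 to 5.24 against 4.25 to 5.29) and the procambium markers (9.65 to 9.85 against 9.65 to 9.76) overlapped. The part of other cells in the results below was not tested. The array numbers in the titles form a run of 2 arrays (replicate 1 of each group) and a run of 4 (the others), and the labels do not say what these numbers are. The median of all values was 6.15 and 6.08 on the run of 2, against 5.41 to 5.55 on the run of 4. For this reason results are repeated with a term for the run (called the block from here on) and inside each run.

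None of the 65 GST and UGT genes passed the test between induced and uninduced cells. The test was limma over all 38408 probes with Benjamini-Hochberg adjustment, at an adjusted p under 0.05. It called 205 probes higher, a background of 0.534%, and 0 lower, a background of 0%. The blocked fit called 381 probes higher (0.992%) and 13 lower (0.0338%), with 0 of the 65 genes among them. On the run of 4 alone, 140 were higher (0.365%) and 3 lower (0.00781%), again with 0 of the 65. At such low backgrounds, a count of 0 among 65 genes is near what the array as a whole gave. At an unadjusted limma p under 0.05, 3 of the 65 were higher and 0 lower, against 3% and 2.74% of all probes. With the block, 9 were higher and 1 lower, against 7.11% and 8.49%.

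The sizes of the changes, induced minus uninduced on the log2 scale, were small for most genes. The median over the 65 was 0.06, against -0.02 over all probes. Changes under 0.5 either way were seen in 59 of the 65. Over all probes these were 34589 of 38408, and over genes with a probe of their own 15597 of 16550. GSTs had a median change of 0.13, with 11 of 14 above 0, and UGTs one of 0.04, with 30 of 51 above 0. Over all probes, 45.8% were above 0, and over genes with a probe of their own 49.2% were, with a median change of -0.004. Within the run of 2 the GST median was 0.16 and within the run of 4 it was 0.15. The GST median turned below 0, to -0.04, without induced replicate 1 and to -0.01 without uninduced replicate 3, and it reached 0.46 without uninduced replicate 1. These fits hold no term for the run, and each leaves the runs unbalanced between groups. GSTs stood higher in the run of 2 by a median of 0.71, so these shifts mix run with group. A p that misses the threshold does not show that a gene kept its level. With the block, the 95% interval lay within 1 log2 unit of 0, a 2-fold change, for 55 of the 65 genes. Over all probes it did so for 31350 of 38408. Without the block the counts were 35 of the 65 and 22220 of 38408 probes. Among the 16550 genes with a probe of their own, they were 15458 with the block and 10813 without.

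**Figure D1:**
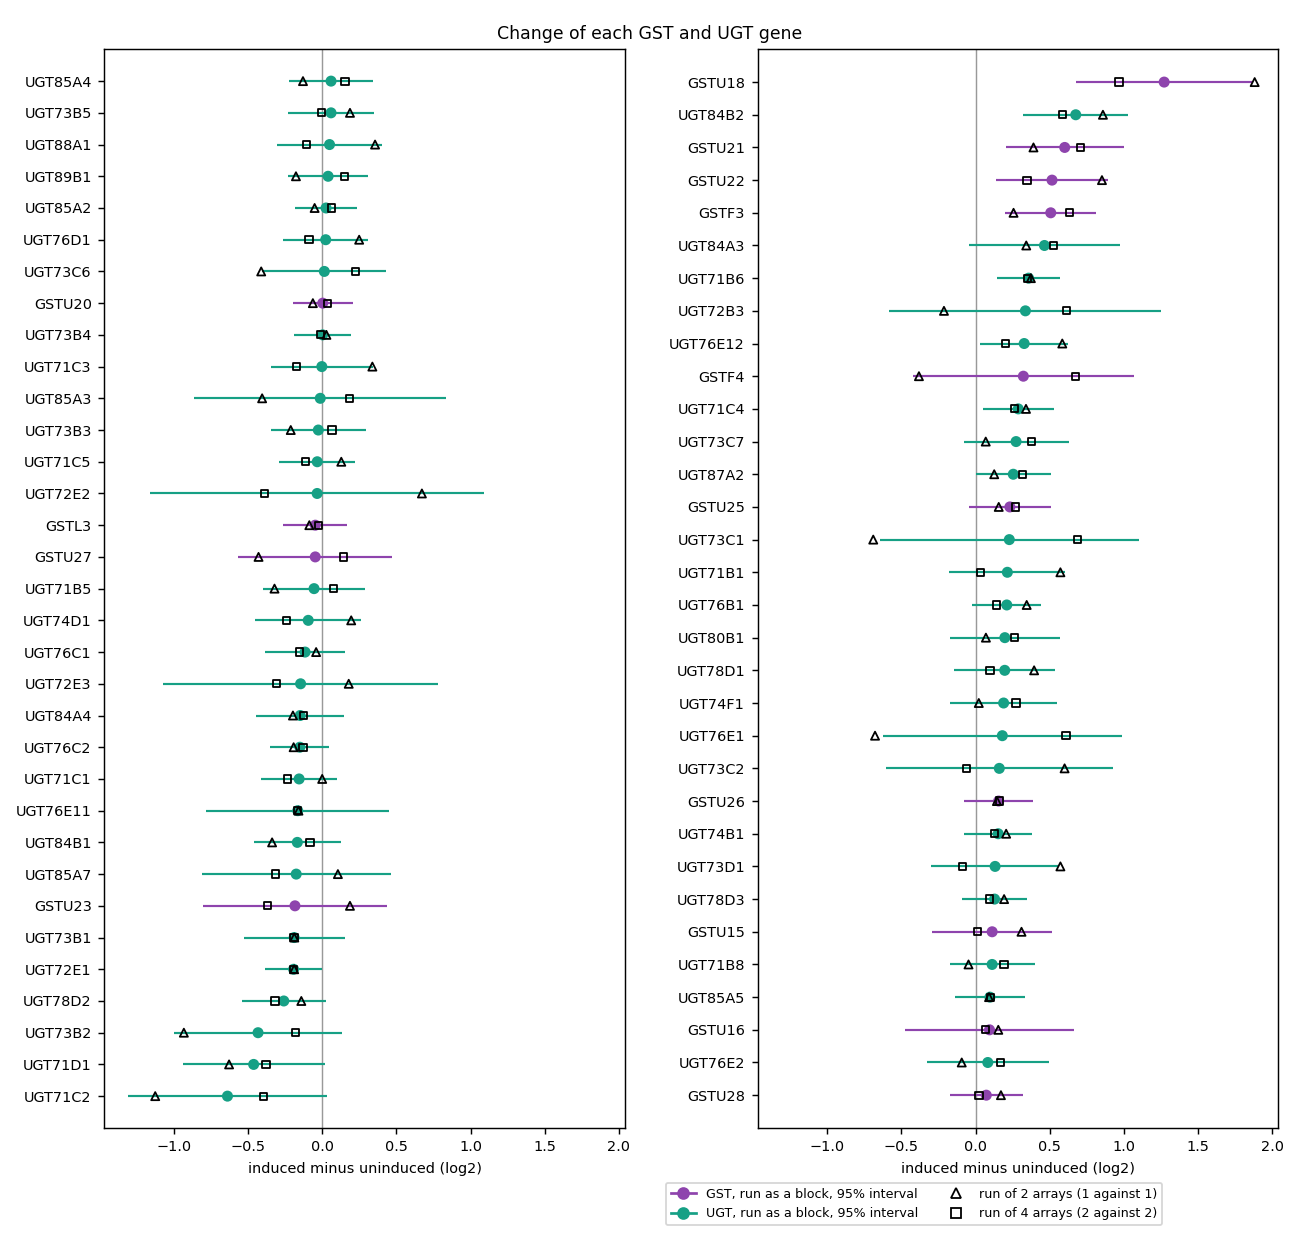
Change of each of the 65 genes, induced minus uninduced in log2 units on the horizontal axis, with 1 gene a line. Filled circles and bars are the estimate and 95% interval with the run as a block (purple GST, green UGT), triangles the change in the run of 2 arrays and squares that in the run of 4. The points run from -0.64 (UGT71C2) to 1.27 (GSTU18), and most intervals include 0.

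In 9 genes every induced array lay above every uninduced one, and in 2 every induced array lay below. The share over all probes was 5.7% for the first pattern and 7.81% for the second. The 9 were GSTU18, GSTU22, GSTU25, GSTF3, UGT84B2, UGT71C4, UGT76E12, UGT76B1 and UGT87A2, and the 2 were UGT72E1 and UGT71C2. UGT71C4 is named here after its values were seen.

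Among the 11 tau-class genes, GSTU18 (AT1G10360, chromosome 1) had the largest estimated change of all 65. Its level was 6.07, 4.89 and 4.84 on the induced arrays and 4.18, 4.06 and 3.74 on the uninduced arrays. Every induced array was above every uninduced one, and induced replicate 1, from the run of 2, stood highest. The difference was 1.27 ± 0.37 log2 (SE, n = 3 per group), with a limma adjusted p of 0.651. With the block the SE was 0.23, the 95% interval 0.68 to 1.87 and the limma adjusted p 0.133. The difference was 1.88 within the run of 2 and 0.97 within the run of 4. Without induced replicate 1 it was 0.87, in a fit without the block that leaves the runs unbalanced between groups. Over 16 alternative settings its lowest adjusted p was 0.051, so that GSTU18 did not pass the threshold in any of them.

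GSTU20 to GSTU23 are close neighbours on chromosome 1, together with UGT85A4, and they did not show a common change. GSTU22 read 10.17, 9.56 and 9.59 in induced cells and 9.32, 9.11 and 9.34 in uninduced cells, a difference of 0.52 ± 0.21. The groups did not overlap, but the limma adjusted p was 0.872, and 0.233 with the block. GSTU21 read 4.15, 3.38 and 3.36 against 3.76, 2.44 and 2.88. Its groups overlapped when the runs were pooled, while in each run the induced arrays were higher, and the difference was 0.60 ± 0.41 with a blocked adjusted p of 0.210. GSTU20, known in Arabidopsis as a partner of the jasmonate-conjugating enzyme JAR1, read 4.93, 3.65 and 3.67 against 4.99, 3.65 and 3.59. These values were nearly equal within each run, with a difference of 0.00 and a blocked 95% interval of -0.20 to 0.21. GSTU23 had a difference of -0.18 ± 0.40.

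GSTU25, an enzyme known to conjugate the explosive TNT, read 9.48, 9.60 and 9.59 in induced and 9.33, 9.46 and 9.19 in uninduced cells. The groups were apart by a narrow margin, and the difference was 0.23 ± 0.13. Its neighbour GSTU26 differed by 0.16 ± 0.27. The other 4 tau genes, GSTU15, GSTU16, GSTU27 and GSTU28, differed by -0.05 to 0.11.

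Both phi-class genes had positive estimates. GSTF3, whose sequence is very close to that of GSTF2, read 9.53, 9.72 and 9.63 in induced and 9.27, 8.97 and 9.11 in uninduced cells. The groups did not overlap and both had a small spread, with SDs of 0.09 and 0.15. The difference was 0.51 ± 0.14, with a limma adjusted p of 0.614, and 0.189 with the block. It was 0.26 within the run of 2 and 0.63 within the run of 4. Whether the GSTF3 probe also binds GSTF2 transcripts was not tested, so the value may not be that of GSTF3 alone. GSTF4 differed by 0.32 ± 0.42, with opposite signs in the 2 runs. It was dim, with a mean level of 2.55, below the 25th percentile of all 6 arrays and below the 5th of 3.

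GSTL3, of the lambda class, read 10.39, 10.39 and 10.49 in induced and 10.48, 10.42 and 10.52 in uninduced cells, and the groups overlapped. The blocked 95% interval of its difference was -0.26 to 0.17.

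**Figure D2:**
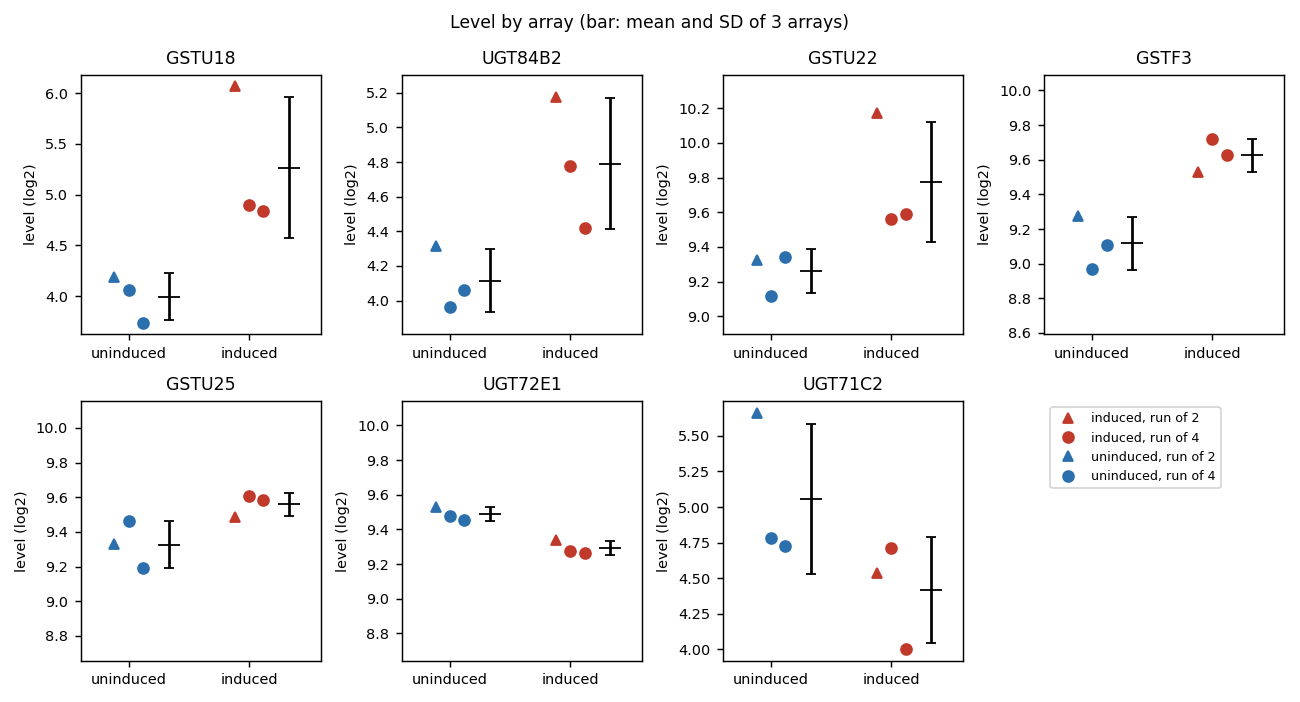
Level (log2, as deposited, vertical axis, each panel on its own range) on each array of 7 genes picked from those whose groups do not overlap. UGT71C4, UGT76E12, UGT76B1 and UGT87A2, also higher in induced cells without overlap, are not shown. Red is induced and blue uninduced, triangles are the run of 2 and circles the run of 4, and the bars are the mean and SD of 3 arrays. Induced is higher for GSTU18, UGT84B2, GSTU22, GSTF3 and GSTU25, and lower for UGT72E1 and UGT71C2.

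UGTs of group E include the UGT72E enzymes, which glucosylate monolignols and their aldehydes. UGT72E1, which acts on coniferyl and sinapyl aldehyde, read 9.34, 9.28 and 9.26 in induced and 9.53, 9.48 and 9.45 in uninduced cells. Every induced array was lower, and the SD was 0.04 in each group. The difference was -0.19 ± 0.11, with a limma adjusted p above 0.9 and of 0.318 with the block. It was -0.19 in the run of 2 and -0.20 in the run of 4. UGT72E2, which acts on coniferyl and sinapyl alcohol, read 5.17, 2.29 and 3.63 in induced and 4.49, 3.47 and 3.23 in uninduced cells. The arrays of a group spread more widely than the groups differed, and the blocked 95% interval of -1.16 to 1.09 leaves a 2-fold change either way within it. UGT72E3, which acts mainly on sinapyl alcohol, read 6.30, 3.57 and 4.54 against 6.12, 3.97 and 4.76. Its replicate 1 was far above the others in both groups, and the difference was -0.15 ± 0.86. UGT72B3 differed by 0.34 ± 0.34.

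The hydroxycinnamate glucosyltransferases of group L form glucose esters of phenylpropanoid acids. UGT84A3 read 5.16, 3.32 and 3.82 in induced and 4.82, 3.26 and 2.82 in uninduced cells, a difference of 0.46 ± 0.70. Its neighbour UGT84A4 differed by -0.15 ± 0.47, at a mean level of 2.52 that was below the 5th percentile of 5 of the 6 arrays. Pooled over runs both genes overlapped between groups. Within each run the induced arrays of UGT84A3 were all higher, and its blocked 95% interval was -0.04 to 0.97 with a limma adjusted p of 0.352.

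Genes next to these steps were read from lists of related enzymes. Of 34 phenylpropanoid genes listed, 5 were measured, and HCT, which forms the hydroxycinnamoyl esters on the way to monolignols, was the 1 that rose, against 0.534% of all probes. HCT read 10.53, 10.29 and 10.29 in induced and 8.81, 8.79 and 8.74 in uninduced cells, a difference of 1.59 ± 0.13 with a limma adjusted p of 0.012. Of 49 beta-glucosidase genes, 24 were measured, with 1 higher, 0 lower and a median change of 0.01, where 0.534% of all probes were higher and 0% lower. The blocked fit called 2 of the 24 higher, against 0.992% of all probes. The 1 called without the block was BGLU41, at 7.36, 7.90 and 7.92 in induced and 4.91, 5.03 and 5.16 in uninduced cells, a difference of 2.70 ± 0.20 with a limma adjusted p of 0.0080. BGLU46, known to release monolignols from their glucosides, read 9.98, 9.57 and 9.61 against 8.66, 8.50 and 8.54. Its groups were well apart, with a difference of 1.15 ± 0.16 and a limma adjusted p of 0.076, and it passed only with the block, at 0.014. BGLU45 (0.53 ± 0.68) and BGLU47 (-0.05 ± 0.28) had groups that overlapped.

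**Figure D3:**
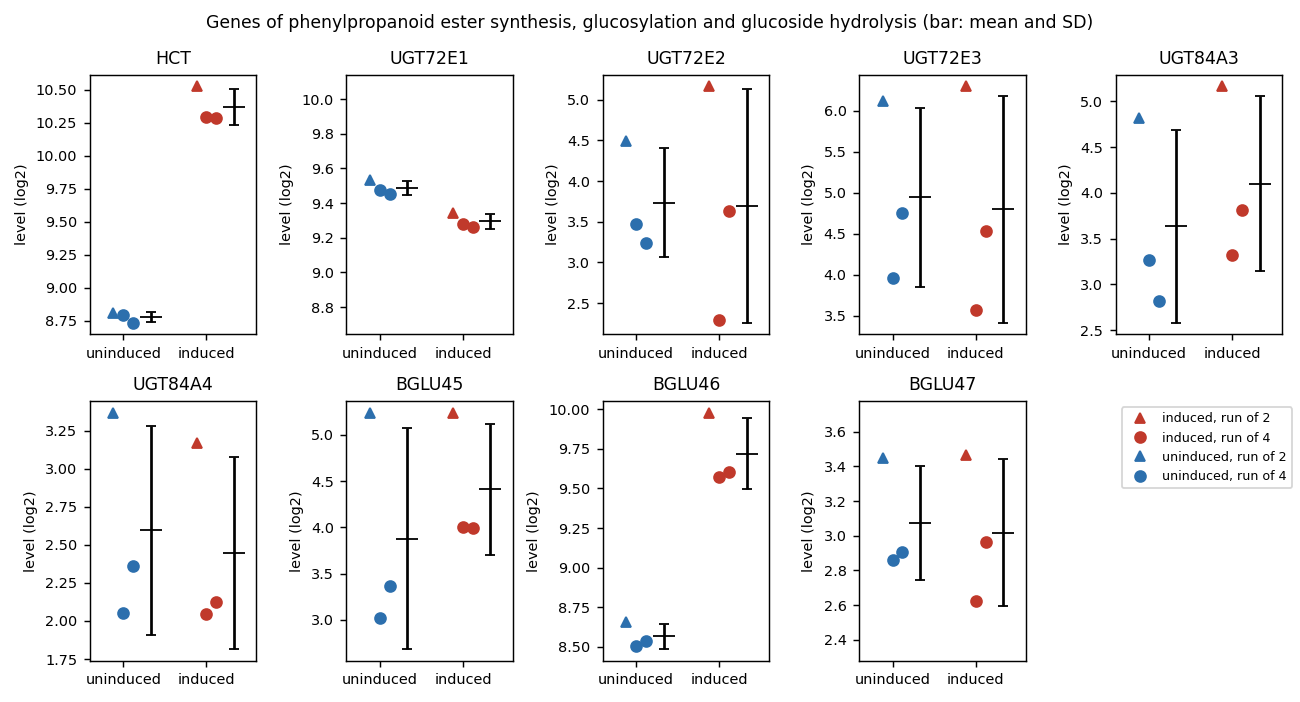
Level (log2, vertical axis, each panel on its own range) on each array of HCT, the UGT72E and UGT84A genes and BGLU45 to BGLU47. Colours, shapes and bars are those of the plot of 7 GST and UGT genes. HCT and BGLU46 stand higher in all 3 induced arrays and UGT72E1 slightly lower, while UGT72E2, UGT72E3, UGT84A3, UGT84A4, BGLU45 and BGLU47 overlap between groups, with replicate 1 high in both.

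The UGT71 genes of group E include enzymes that glucosylate abscisic acid. UGT71B6, one of these, differed by 0.36 ± 0.38, and by 0.37 and 0.35 within the 2 runs. Its blocked 95% interval was 0.15 to 0.57 with a limma adjusted p of 0.187. UGT71C5, another, differed by -0.03 ± 0.38. UGT71C4 read 7.42, 7.29 and 7.09 against 7.08, 6.95 and 6.91, a difference of 0.29 ± 0.14. UGT71C2 had the lowest estimate of the 65, at 4.54, 4.71 and 4.0 in induced and 5.66, 4.78 and 4.72 in uninduced cells. The groups were apart by under 0.01 between the nearest arrays, and the difference of -0.64 ± 0.33 had a blocked 95% interval of -1.31 to 0.03. Its neighbours on chromosome 2, UGT71D1 and UGT71C1, had estimates of -0.46 ± 0.44 and -0.16 ± 0.34. UGT71D1 was dim, with a mean level of 2.52, below the 5th percentile of 4 of the 6 arrays. Pooled over runs both neighbours overlapped between groups, while within each run the induced arrays of both were lower. In the run of 2 the UGT71C1 difference was only -0.0004. The blocked 95% intervals were -0.94 to 0.02 for UGT71D1 and -0.41 to 0.10 for UGT71C1, with limma adjusted p of 0.333 and 0.514. Whether such close relatives share signal through cross-hybridization was not tested.

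The other group L genes act on hormones and defence compounds. UGT84B2 read 5.18, 4.78 and 4.42 in induced and 4.32, 3.96 and 4.06 in uninduced cells, with no overlap. Its difference was 0.68 ± 0.23, with a limma adjusted p of 0.774, and 0.158 with the block. UGT84B1, its neighbour, known to glucosylate the auxin indole-3-acetic acid, had an estimate of -0.17 ± 0.44, and the difference between the 2 genes was not tested. UGT84B1 was dim, with a mean level of 2.68, below the 25th percentile of all 6 arrays and below the 5th of 3. UGT74B1, which completes the core of glucosinolates, differed by 0.15 ± 0.14. UGT74F1, which glucosylates salicylic acid, differed by 0.19 ± 0.20. UGT74D1, which acts on auxins, differed by -0.09 ± 0.16.

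In group H, UGT76B1, which glucosylates isoleucic and salicylic acid, read 9.60, 9.31 and 9.39 in induced and 9.25, 9.24 and 9.17 in uninduced cells. The groups were apart, with a difference of 0.21 ± 0.13. UGT76C1 (-0.12 ± 0.30) and UGT76C2 (-0.15 ± 0.16), which glucosylate cytokinins, overlapped between groups. Within each run the induced arrays of UGT76C2 were all lower, with a blocked 95% interval of -0.35 to 0.05 and a limma adjusted p of 0.427. UGT76E12 read 7.14, 6.68 and 6.60 against 6.55, 6.47 and 6.40, a difference of 0.33 ± 0.18. A second probe of UGT76E12 gave 0.07 ± 0.28. UGT76E11, the neighbour of UGT76E12, had an estimate of -0.17 ± 0.47, and UGT76D1 one of 0.02 ± 0.22. Both overlapped between groups.

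UGT87A2 of group J, linked in Arabidopsis to flowering time, read 10.81, 10.87 and 10.76 in induced and 10.68, 10.57 and 10.43 in uninduced cells. All induced arrays were higher, and the difference was 0.25 ± 0.13 with a blocked adjusted p of 0.319. In group G, UGT85A2 read 11.25, 11.01 and 11.04 against 11.30, 10.99 and 10.93, a difference of 0.03 ± 0.16. The other 4 group G genes had estimates of -0.18 to 0.10. The 3 flavonol glycosyltransferases of group F had estimates of 0.20 for UGT78D1 (rhamnose), -0.26 for UGT78D2 (glucose) and 0.13 for UGT78D3 (arabinose). Group D, which includes enzymes of stress and xenobiotic responses, had 10 genes with estimates of -0.43 (UGT73B2) to 0.27 (UGT73C7). UGT73B4 had overlapping groups, at 8.55, 8.59 and 8.63 against 8.52, 8.63 and 8.60. UGT89B1 differed by 0.04 ± 0.26. UGT80B1, which glucosylates sterols, differed by 0.20 ± 0.57.

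**Figure D4:**
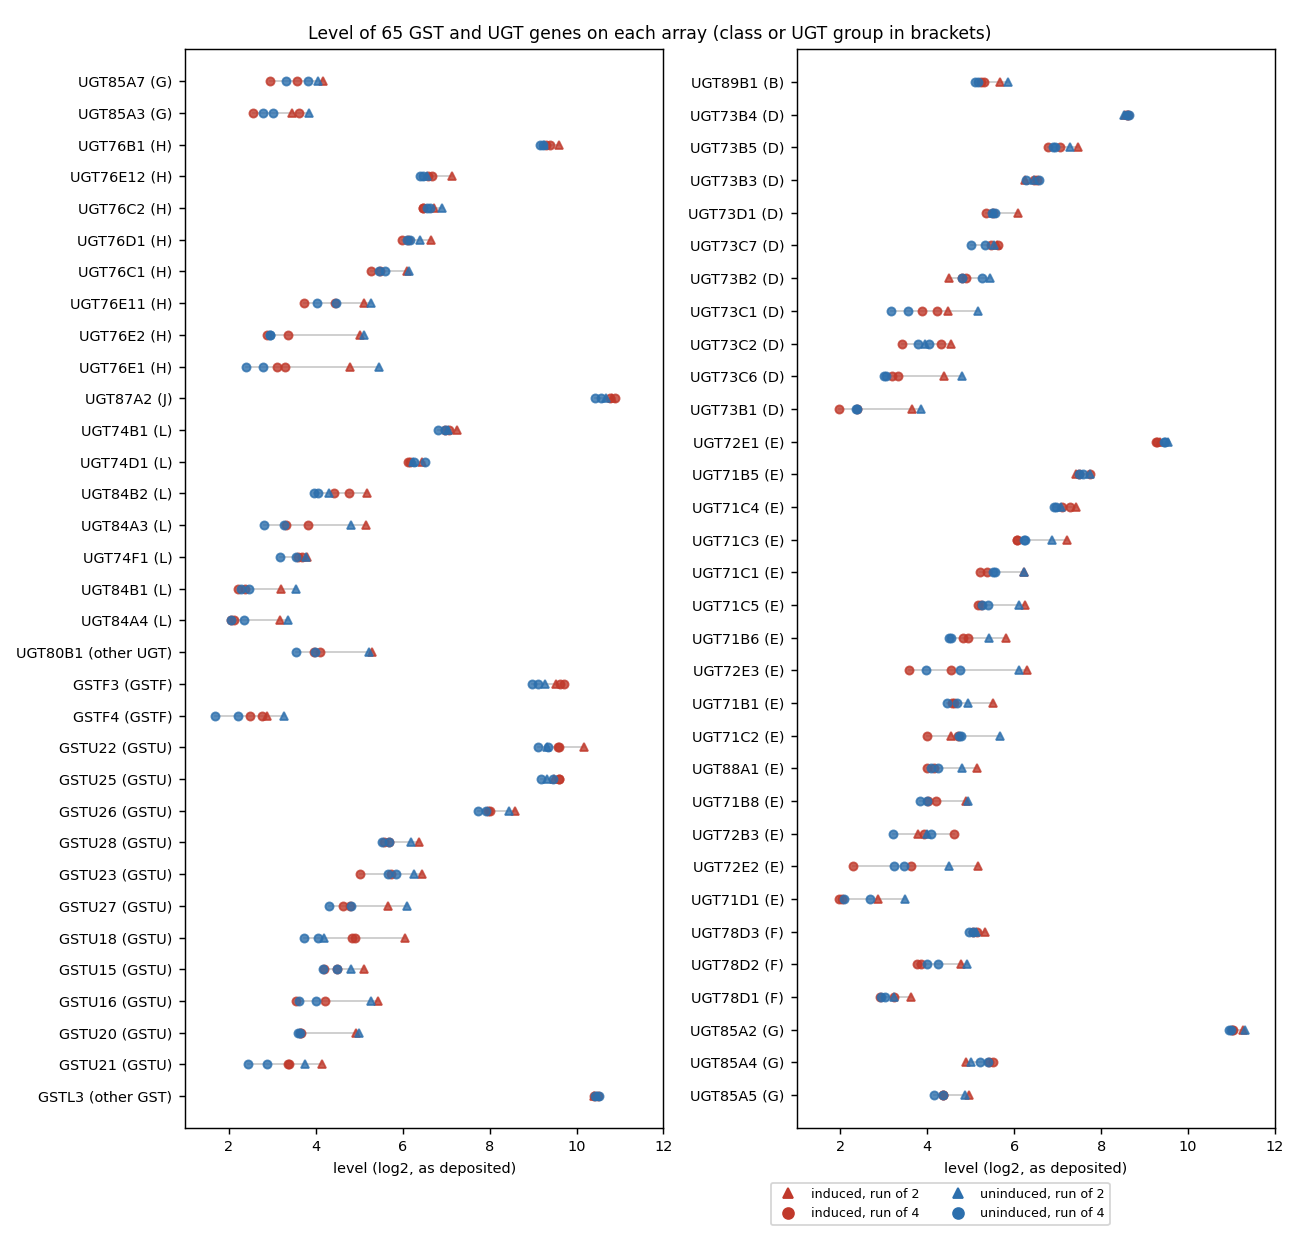
Level (log2, as deposited, horizontal axis) of the 65 genes on each array, with 1 gene a line and its class or UGT group in brackets. Red is induced, blue uninduced, triangles the run of 2 and circles the run of 4. Levels are to be read along a line, since probes of different genes differ in brightness. For UGT76E1, UGT76E2 and UGT72E3 both triangles lie right of all circles.

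The supply of the sugar and glutathione donors was only partly measured. Of 43 genes of glutathione supply and recycling, 6 were measured, with 0 higher, 0 lower and a median change of -0.08. The 6 were GR, GRX480, GLX2-1, GLY2, GLX2-4 and GLX2-5. The listed synthesis genes GSH1 and GSH2 were not among them, so the median does not describe glutathione synthesis. Glutathione reductase (GR) had an estimate of -0.16 ± 0.11. Of 36 UDP-sugar genes only USP, which forms UDP-sugars from sugar phosphates, was measured, at 8.96, 8.98 and 9.05 against 8.67, 8.60 and 8.67. Its difference of 0.35 ± 0.11 had a limma adjusted p of 0.737. Of 22 xenobiotic response genes 1 was measured, AER, with a change of -0.01. None of the 23 genes of conjugate export was measured by name.

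The 2 runs of arrays differed for far more of these genes than the 2 groups did. In a limma fit with group and run as terms, 32 of the 65 were higher and 1 lower in the run of 2, against 36.8% and 0.599% of all probes. The GSTs had 7 of 14 higher and the UGTs 25 of 51. The median difference was 0.63 log2, against 0.42 over all probes. UGT76E1 (2.22), UGT76E2 (2.02) and UGT72E3 (2.0) differed most, and the 1 lower gene was UGT85A4 (-0.43). Dim probes differed more: across the 65 genes, which are not independent, the Pearson correlation of level and run difference was -0.57, and it was -0.45 over all probes. These counts depend on scaling, with 10 higher and 15 lower after each array was centred on its median, and 1 higher and 2 lower after quantile normalization.

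**Figure D5:**
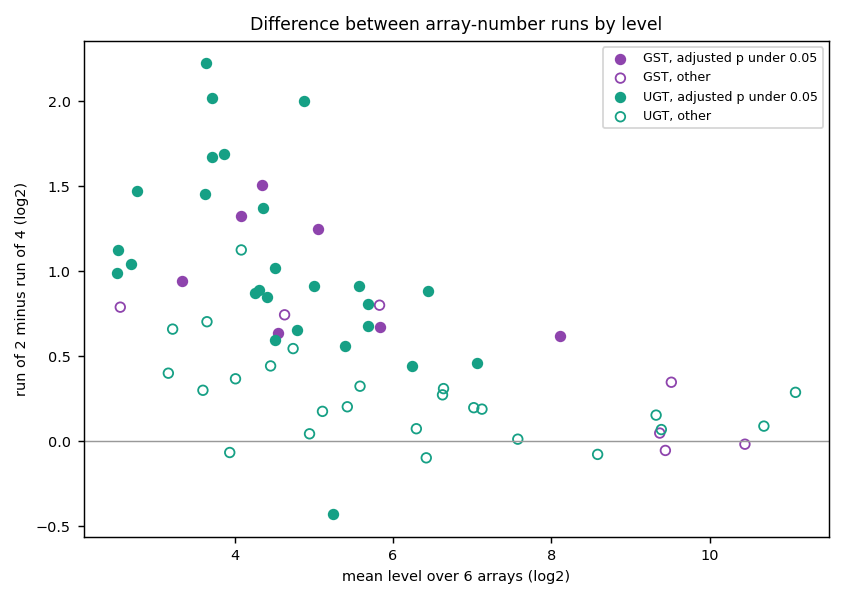
Difference between the run of 2 and the run of 4 arrays (log2, vertical axis, adjusted for group) against the mean level over 6 arrays (log2, horizontal axis) for the 65 genes. Purple is GST, green UGT, and filled points have a limma adjusted p under 0.05. The filled points above 0 number 32, the largest being UGT76E1 at 2.22, and the 1 below 0 is UGT85A4 at -0.43.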

How the data were processed

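The submitters' processing notes name Affymetrix Expression Console 1.3. The deposited values, 1 per probe and array, lie on a log scale, taken as log2 from their range. How they were summarised, background-corrected and normalized, and the probes' genome build, is not given in the sources used here. No detection calls were used, so no level is called background, and the number of arrays limits the precision.

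Of 38408 probes, 16722 name 1 gene, 759 several and 20927 none. Symbols were updated through the RefSeq gene table (TAIR10.1), which also gave chromosomes and neighbours, at most 5 protein-coding genes apart. For 139 genes it had no entry. The values were tested as deposited with limma 3.58.1 in R 4.3.3 (lmFit, eBayes, all probes, Benjamini-Hochberg). The same limma call was also run on simulated arrays, where only the estimates were checked against the planted changes.

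The genes named were drawn from any that passed, the largest rise and fall and the highest and lowest level in each class, and listed genes with known roles. UGT73B1, UGT73B3, UGT73B5, UGT73C1, UGT73C6, UGT85A3, UGT85A5 and UGT85A7 also met this rule, but are given only in the plots and their group's range. Named after their values were seen were UGT71C4, UGT76E2, UGT85A4, UGT71C1, GSTU15, GSTU16, GSTU26, GSTU27 and GSTU28. The members and lists were chosen with earlier results of these data known. Replicate numbers follow accession order and were not used as pairs. The array run, which holds replicate 1 of both groups in 1 run and the other arrays in another, was used as the block. Alternatives were other variance estimates and normalizations, a filter on dim probes, the run as a block or alone, array weights, averaged probes and leaving out each array. Sequences were not used here.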

Additional observations from a re-analysis of the deposited data

How the results depend on the processing

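None of the 65 genes passed an adjusted p under 0.05 in limma under any alternative setting it was tested in, including each array left out in turn. There were 16 such settings for 46 genes and 15 for the 19 genes that the filter on dim probes left out. The lowest adjusted p was 0.051 for GSTU18 and 0.053 for GSTF3, both with the run as a block and trended, robust variance. The sign of the estimate was kept under every setting a gene was tested in by 23 genes, 5 of them among those with 15, and changed under at least 1 by 42. The same counts over all probes are not given, so these do not single out the 65 genes. At an unadjusted p, 3 of the 65 were higher. Over all probes, the count higher was 351 with trended, robust variance, 318 after quantile normalization, 381 with the run as a block, 457 with array weights, 802 with the block and trended, robust variance, 378 with the block after quantile normalization and 1151 unadjusted. Leaving out 1 array gave 56 (without induced replicate 3) to 154 (without uninduced replicate 1), with fewer arrays in each fit. The count lower, 0 as reported, was 14, 5, 13, 28, 423, 7 and 1053 in the same order, 3 on the run of 4 alone and 1 without the dimmest 25% of probes. Between the runs, 1667 probes were higher and 1625 lower in the run of 2 after quantile normalization, and 3603 and 11268 after median centring. Among the 65 these were 1 and 2, then 10 and 15. The fits of the block with trended, robust variance and of the block after quantile normalization were chosen after seeing the data. Leaving out 1 array moved the UGT median change between -0.13 (without induced replicate 1) and 0.23 (without uninduced replicate 1). Each such fit leaves the runs unbalanced between groups. The replicate numbers were not used as pairs, since they follow accession order. The blocked fit matches the groups by array run, which joins replicate 1 of both groups but does not pair the other 4 arrays singly. With 3 arrays a group, changes in dim genes such as UGT72E2 were not resolved.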

Other observations

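Some UGT genes carry other symbols in the annotation and fell outside the rule. GT72B1 (UGT72B1), which glucosylates monolignols and chlorinated phenols, had a mean of 5.16 in induced and 4.20 in uninduced cells. Its difference was 0.96 ± 0.37 log2, with a limma adjusted p of 0.838 without the block, and values with the block are not given here. SGT (UGT80A2), a sterol glucosyltransferase, differed by 0.08 ± 0.11, UF3GT (UGT79B1), of anthocyanin synthesis, by 0.12 ± 0.37, and AT5G54010 (UGT79B6) by 0.20 ± 0.62. A pair of probes shared by UGT84A1 and AT4G15475 gave 0.16 ± 0.19 and 0.07 ± 0.31. Of the 5 genes with a second probe, UGT74D1 had estimates of opposite sign on its probes, -0.09 and 0.10, and UGT71B6 had 0.36 and 0.40.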
